A study of Arabidopsis thaliana with 6 samples.

Results

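The transcripts described here are those of 39 photosynthesis genes that the plastid genome itself encodes, measured in an Arabidopsis thaliana cell culture exposed to phytoprostane A1 (PPA1). They were chosen as a list of probe sets for plastid psa, psb, pet, atp and ndh genes and rbcL, 39 of the 22746 probe sets tested. A probe set is the group of short DNA probes on the array that together measure 1 transcript. Each of the 39 is paired with exactly 1 gene in the platform's annotation, and the reference gene table places all 39 genes on the plastid chromosome. They divide into 13 genes of photosystem II (psb), 5 of photosystem I (psa), 4 of the cytochrome b6f complex (pet), 6 of the ATP synthase (atp), 10 of the NADH dehydrogenase-like complex NDH (ndh) and rbcL. A further 4 plastid genes with such names, petL, petN, psbI and psbZ, have a probe set outside the list. All 6 samples came from a mixotrophic cell culture, whose cells photosynthesise and also take up organic carbon from the medium. The treated cells received 75 µM PPA1 for 4 h and the control cells 0.5% methanol in water for 4 h, with 3 replicates of each. The sources used here do not give the genotype, ecotype, light conditions or age of the culture, nor whether the treated cells also received methanol.

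A phytoprostane is an oxidised lipid that forms from linolenic acid by free-radical chemistry without an enzyme, and the chloroplast membranes are rich in that fatty acid. Photosynthetic complexes are built from subunits of 2 genomes: the plastid encodes the reaction-centre cores and many small membrane subunits, and the nucleus encodes most peripheral subunits. Plastid genes lie in clusters that are transcribed together by a bacterial-type polymerase, with nucleus-encoded sigma factors, and by a phage-type polymerase from the nucleus. The long primary transcripts are then cut, trimmed and stabilised by nucleus-encoded RNA-binding proteins, so that genes of a cluster can differ in transcript level. Most mature plastid transcripts have no poly(A) tail, and the labelling kit named in the labels primes on such tails in its standard protocol. How this bears on the signals below was not tested.

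Median signals per array ran from 41.9 to 51.0 in the authors' normalized intensity units. Signals of 16 (4 on the log2 scale) and 64 (6 on the log2 scale) serve here as limits for dim and bright probe sets. Over the 6 arrays, 28 of the 39 members averaged 6 or more on the log2 scale and 1, ndhF, averaged under 4. Precision is limited by the small number of arrays, 3 per condition. The labels call the replicates independent without saying what separates them, so a p-value here is set by the spread among these cultures or preparations, which may be technical. Signals are listed in the order of replicates 1, 2 and 3 throughout. The median log2 change of all tested probe sets was -0.21 on the deposited scale and 0.01 once each array was centred on its own median. A member's change is therefore also given relative to the array median where this matters. In bulk RNA, fewer plastids per cell, a smaller share of plastid-rich cells and less RNA per plastid cannot be told apart.

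The members together took 0.672%, 0.497% and 0.571% of the summed signal in the control cells. In PPA1-treated cells their share was 0.598%, 0.317% and 0.399%. The 2 ranges overlapped, with PPA1 replicate 1 inside the control range and PPA1 replicates 2 and 3 below it. The mean share was 0.580% ± 0.0882 without PPA1 and 0.438% ± 0.144 with it (SD, n = 3 per group). A sum of linear signals weighs bright members such as petB most. The plot of the members' signals by array shows each gene's log2 signal relative to its controls, not its share.

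**Figure D1:**
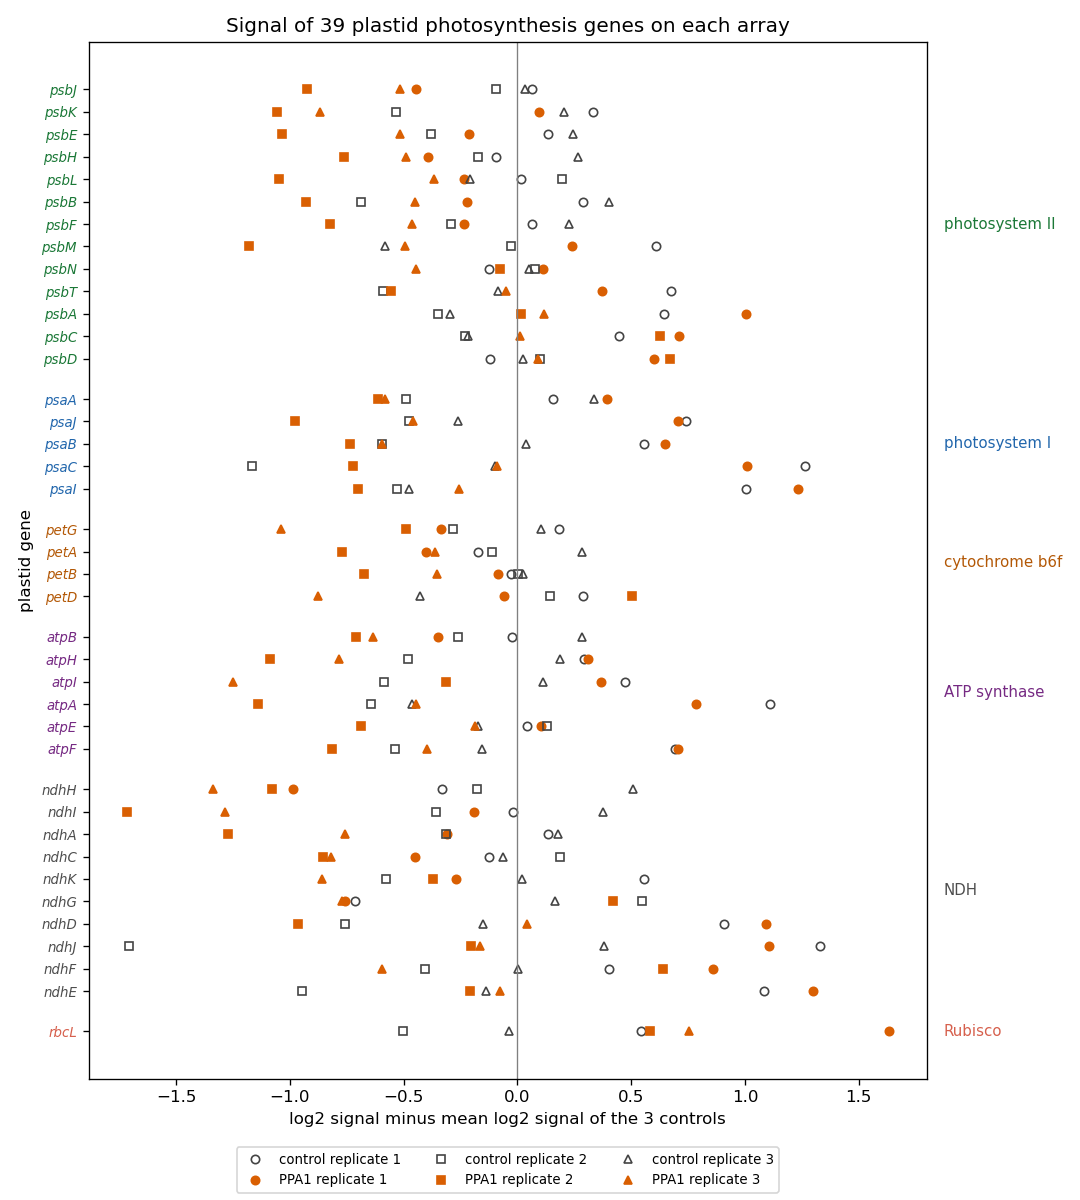
Log2 signal of each of the 39 members on each of the 6 arrays, minus the mean log2 signal of the 3 control arrays (horizontal axis), grouped by complex. Open symbols are controls, filled symbols PPA1, and circles, squares and triangles are replicates 1, 2 and 3. The filled symbols of ndhH lie left of all its open symbols, and those of rbcL lie right of all its open symbols.

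None of the 39 members passed the test for a difference between PPA1 and control. The tests were limma on log2 signals, two-sided, with Benjamini-Hochberg adjustment over all 22746 probe sets and a threshold of 0.05. With 0 members higher and 0 lower, the count stood beside 0.809% of all tested probe sets called higher and 0.994% called lower, or 1.8% in either direction. The members' adjusted p ran from 0.105 for ndhH to 0.968 for ndhD. At an unadjusted p under 0.05, limma gave 3 members lower (ndhH, ndhC and psbJ) and 0 higher, against 14.8% and 8.26% of all probe sets. The 95% interval of a member's log2 change reached a median of 1.01 to either side, so changes of 2-fold could not be told from 0 for a typical member.

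The estimates themselves leaned low. The log2 change was below 0 in 29 of 39 members, or 74.4%, where 61.2% of all tested probe sets had a change below 0 and 38.8% one above. The median over the members was -0.37, against -0.21 over all tested probe sets. Relative to the array medians, 25 of 39 members were below 0 and 14 above, against 49.7% and 50.3% of all tested probe sets, and the members' median was -0.16. Among bright probe sets alone, 20 of 28 members (71.4%) were below 0 on that scale, against 42.7% of all bright probe sets. This difference was not tested. All PPA1 values lay below all control values in 9 members and above them in 1, rbcL, against 20.1% and 10.8% of all tested probe sets. After centring on the array medians these counts were 4 and 2, against 12.9% and 16.8%. Arrays of the same replicate number differed downwards for all 3 numbers in 17 members and upwards in 5 (rbcL, psbA, psbC, psbD and ndhE), against 31.7% and 17.3%. Single arrays moved the members' median. It was -0.61 without PPA1 replicate 1 (all tested probe sets -0.26) and -0.52 without control replicate 2 (all -0.20). Without control replicate 3 it was -0.36 (all -0.20), and without PPA1 replicate 2 -0.22 (all -0.19). Without PPA1 replicate 3 it was -0.18 (all -0.14). Without control replicate 1 it was -0.200, no lower than the -0.205 of all tested probe sets.

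**Figure D2:**
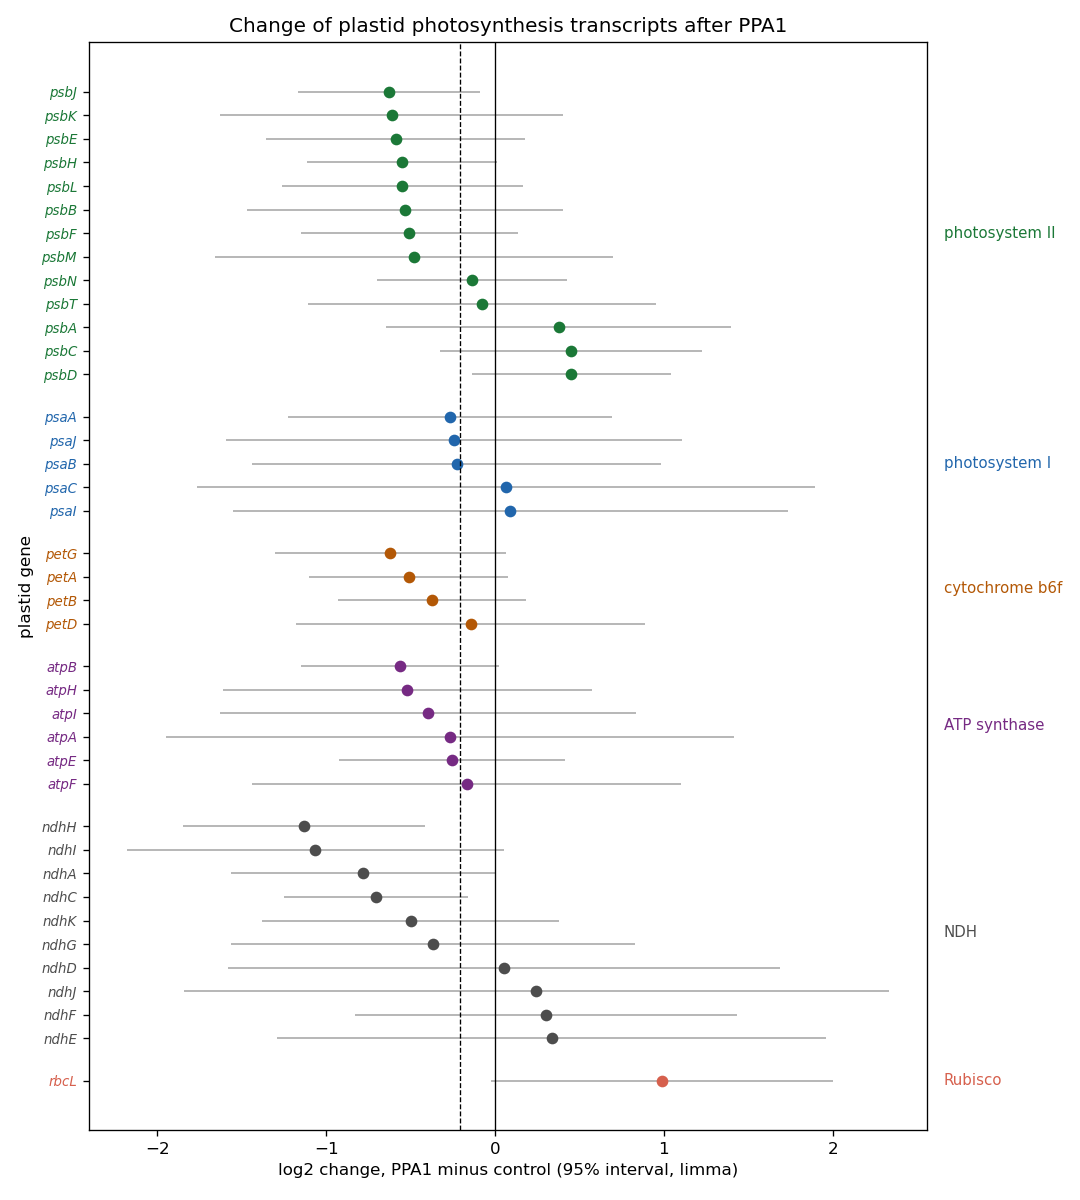
Log2 change (PPA1 minus control, deposited scale) of each member with its 95% limma interval, grouped by complex. The solid line marks 0 and the dashed line the median of all tested probe sets, -0.21. The intervals of ndhH, ndhC and psbJ end below 0, and those of the other 36 members include 0.

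Photosystem II splits water and passes its electrons to plastoquinone. Of its 13 members, 10 had a log2 change below 0 and 3 above 0, with a median of -0.51 on the deposited scale and -0.29 relative to the array medians. The 3 above 0 were psbA, psbC and psbD, which with psbB encode the large proteins of the core. For psbD (245002_at), the gene of the D2 reaction-centre protein, signals were 69.9, 81.4 and 77.3 without PPA1 and 115, 121 and 80.9 with it. The lowest PPA1 value, that of replicate 3, lay just inside the control range and the other PPA1 values lay above it. The log2 change of psbD was 0.45 (95% interval -0.14 to 1.04, limma adjusted p = 0.310), and relative to the array medians it was 0.67, with groups that no longer overlapped. The gene of CP43, a chlorophyll-binding antenna protein of the core, is psbC (245003_at), with signals of 256, 161 and 162 without PPA1 and 308, 290.5 and 189 with it. PPA1 replicate 3 lay within the control range, and the log2 change was 0.45 (95% interval -0.33 to 1.22, limma adjusted p = 0.429). The reading frames of psbD and psbC overlap and the genes are transcribed together, so their values are not independent.

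The gene psbA (245047_at) encodes D1, the reaction-centre protein that light damages and that chloroplasts replace continually. Its signals were 238, 119 and 124 without PPA1 and 304, 154 and 165 with it. In both conditions replicate 1 was the highest, and the groups overlapped. The log2 change of psbA was 0.38 (95% interval -0.64 to 1.40, limma adjusted p = 0.613). Comparing arrays of the same replicate number, psbA was higher after PPA1 by 0.36, 0.36 and 0.41 for numbers 1, 2 and 3. No alternative fit called it (lowest limma adjusted p = 0.192). The core antenna protein CP47 is encoded by psbB, whose log2 change was -0.53 (95% interval -1.47 to 0.40, limma adjusted p = 0.435), in the opposite direction to psbC and psbD. Neither direction passed the test. The difference between psbB and the other core genes was not tested.

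The small subunits of photosystem II had log2 changes below 0 on the deposited scale (psbT above 0 after centring), none of which passed the test. The genes psbE and psbF encode the subunits of cytochrome b559, and psbL and psbJ follow them in the same transcription unit. Their log2 changes were -0.59 for psbE, -0.51 for psbF, -0.55 for psbL and -0.63 for psbJ. For psbJ (245021_at), the lowest of the 13, signals were 1007, 902 and 986 without PPA1 and 709, 508 and 674 with it. All PPA1 arrays lay below all controls, which differed little among themselves (log2 SD 0.08), and the log2 change was -0.63 (95% interval -1.17 to -0.09, limma adjusted p = 0.172). The gene of a small phosphorylated subunit, psbH, had a log2 change of -0.55 (95% interval -1.11 to 0.01, limma adjusted p = 0.225), also with separate groups, as had psbL on the deposited scale, though not after centring. For psbK, psbM and psbT, which encode single-helix subunits, the log2 changes were -0.61, -0.48 and -0.08, with overlapping groups. The gene psbN, which in tobacco encodes an assembly factor and not a subunit, stood at -0.14. The changes of psbT and psbN were above 0 relative to the array medians.

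Photosystem I uses light to reduce ferredoxin. Its 5 members had log2 changes from -0.27 to 0.09 and a median of -0.23, or -0.01 relative to the array medians. None had separate groups. The reaction-centre core proteins are encoded by psaA and psaB. Signals of psaA (245007_at) were 346, 221 and 393 without PPA1 and 409, 204 and 207 with it, with a log2 change of -0.27 (95% interval -1.22 to 0.69, limma adjusted p = 0.710). Those of psaB (245006_at) were 1659, 747 and 1156 without PPA1 and 1768, 678 and 745 with it, with a log2 change of -0.23 (95% interval -1.44 to 0.99, limma adjusted p = 0.809). For both genes PPA1 replicate 1 was the highest of the 6 arrays, while PPA1 replicate 2 was the lowest.

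The iron-sulphur protein that holds the terminal electron acceptors is encoded by psaC, with a log2 change of 0.07 (95% interval -1.77 to 1.90, limma adjusted p = 0.966). The small membrane subunits are encoded by psaJ, at -0.24, and psaI, at 0.09. Signals of psaI (245017_at), the highest change of the complex, were 337, 116 and 121 without PPA1 and 394, 103 and 140.5 with it. Both replicate 1 arrays lay far above the other arrays, and the interval of its log2 change ran from -1.55 to 1.73 (limma adjusted p = 0.947). A change of 2-fold in either direction is within that interval, and within those of psaC and psaJ, in a fit that takes no account of replicate number. Between arrays of the same number, psaI differed by 0.23, -0.17 and 0.22 (PPA1 minus control, log2, numbers 1, 2 and 3). For psaC the differences were -0.25, 0.44 and 0.0098, and for psaJ -0.03, -0.50 and -0.20. What a number shares is not in the labels.

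The cytochrome b6f complex links the photosystems. All 4 members had a log2 change below 0, with a median of -0.44, and 3 of 4 were below 0 relative to the array medians (median -0.23), petD being above. Signals of petG (244966_at), the gene of a small subunit, were 79.6, 57.6 and 75.4 without PPA1 and 55.6, 50.1 and 34.1 with it, with all PPA1 values below all controls. Its log2 change was -0.62 (95% interval -1.31 to 0.06, limma adjusted p = 0.248), and -0.39 with 32 added. For petA, which encodes cytochrome f, the log2 change was -0.51 (95% interval -1.10 to 0.08, limma adjusted p = 0.262). For petB, which encodes cytochrome b6, it was -0.37 (95% interval -0.93 to 0.18, limma adjusted p = 0.366). The groups of petG, petA and petB were separate on the deposited scale and overlapped after centring. The controls of petB were closer to each other than those of any other member, with a log2 SD of 0.03.

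The gene of subunit IV, petD (244977_at), gave signals of 21.7, 19.6 and 13.2 without PPA1 and 17.1, 25.3 and 9.69 with it. These values lie near the limit for dim probe sets, the groups overlapped, and the log2 change was -0.14 (95% interval -1.18 to 0.89, limma adjusted p = 0.860). No level is compared between genes here, since probes differ in how strongly they bind.

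The ATP synthase uses the proton gradient across the thylakoid membrane to make ATP. All 6 members had a log2 change below 0 (median -0.33) and 5 of 6 relative to the array medians (median -0.12), atpF being above. In the catalytic head, atpB (245014_at) encodes the beta subunit, with signals of 2760.4, 2345 and 3417 without PPA1 and 2202, 1716 and 1809 with it. The PPA1 values lay below all controls, although the gap was narrow between PPA1 replicate 1 and control replicate 2. Its groups overlapped after centring, and its log2 change was -0.56 (95% interval -1.15 to 0.02, limma adjusted p = 0.229). The epsilon subunit is encoded by atpE (245013_at), whose signals were 2565, 2722 and 2206 without PPA1 and 2672, 1545 and 2188 with it. PPA1 replicates 2 and 3 lay below the control range and PPA1 replicate 1 within it, and the log2 change was -0.26 (95% interval -0.93 to 0.41, limma adjusted p = 0.597). The 2 reading frames adjoin or overlap and are transcribed together, so these values are not independent either.

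The other 4 genes of the complex, atpI, atpH, atpF and atpA, form a second transcription unit. They encode the membrane subunits a, c (the rotor ring) and b and the alpha subunit of the head. Their log2 changes were -0.40, -0.52, -0.17 and -0.27. Signals of atpI lay near the limit for dim probe sets, at 32.6, 15.7 and 25.4 without PPA1 and 30.3, 18.9 and 9.89 with it. Its log2 change was -0.14 with 32 added and -0.06 under quantile normalization. Signals of atpF (245025_at), the change nearest to 0, were 604, 258 and 336 without PPA1 and 610.4, 213 and 284 with it. As in psaI, both replicate 1 arrays lay above the other 4, and atpA showed the same order. For atpA the interval of the log2 change ran from -1.95 to 1.42 (limma adjusted p = 0.839).

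NDH is a proton-pumping complex that returns electrons from ferredoxin to plastoquinone, in cyclic electron flow around photosystem I. Its 10 members spread more widely than those of the other complexes, from -1.13 to 0.34, with a median of -0.43 (-0.22 relative to the array medians). A log2 change below 0 was found for 6 and above 0 for 4, on both scales. The members with the 4 lowest changes among all 39 on the deposited scale were ndhH, ndhI, ndhA and ndhC. The gene ndhH (244937_at) encodes a subunit of the peripheral arm that faces the stroma, and its signals were 40.4, 44.9 and 72.1 without PPA1 and 25.6, 24.02 and 20.1 with it. Its PPA1 values lay well below all controls, and the mean log2 signal was 5.67 ± 0.45 without PPA1 and 4.53 ± 0.18 with it (SD, n = 3 per group). The log2 change was -1.13 (95% interval -1.85 to -0.42, limma adjusted p = 0.105), or 2.19-fold lower, and -0.92 relative to the array medians. Its PPA1 signals were low, and with 32 added to each signal before log2 the change was -0.60, less low than that of psbJ.

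For ndhI (244935_at), an iron-sulphur subunit of the same arm, signals were 933, 736 and 1225 without PPA1 and 827, 287 and 388 with it. PPA1 replicate 1 lay within the control range while PPA1 replicates 2 and 3 lay below all controls. The log2 change was -1.06 (95% interval -2.18 to 0.05, limma adjusted p = 0.233). The membrane subunit gene ndhC (245012_at) gave 1717, 2137 and 1796 without PPA1 and 1374, 1038 and 1063 with it, with all PPA1 values below all controls. Its log2 change was -0.71 (95% interval -1.25 to -0.16, limma adjusted p = 0.144). For ndhA, another membrane subunit, the log2 change was -0.78 (95% interval -1.56 to 0.01, limma adjusted p = 0.220), with a PPA1 replicate 1 value just above the lowest control.

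Some alternatives called NDH genes. With dim probe sets left out of the fit, limma called ndhH lower (adjusted p = 0.0370), in a fit that called 8.79% of probe sets lower and 5.39% higher. With the replicate number added to that fit as a block, ndhH no longer passed (limma adjusted p = 0.0699). With 32 added before taking log2 it called ndhC lower (adjusted p = 0.0430), where 5.93% were called lower and 3.29% higher. With array weights it called ndhH, ndhC and ndhI lower (adjusted p = 0.0259, 0.0221 and 0.0429), where 14.6% were called lower and 9.36% higher. Without PPA1 replicate 1 it called ndhI lower (adjusted p = 0.0449), where 7.51% were called lower and 6.32% higher. Over all alternatives the adjusted p ran from 0.0259 to 0.292 for ndhH, from 0.0221 to 0.367 for ndhC and from 0.0429 to 0.474 for ndhI.

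Other fits called 0 of the 39 members. A robust variance trend called 5.15% of all probe sets lower and 3.48% higher. At an unadjusted p under 0.05 it gave 9 members lower and 1 higher, against 16.4% and 9.91% of all probe sets. A term for replicate 1 against the rest called 0.717% of all probe sets lower and 0.73% higher, and unadjusted gave 4 members lower and 1 higher, against 16.2% and 9.75%. Median centring called 0.677% lower and 1.05% higher, and unadjusted gave 1 member lower and 2 higher, against 9.4% and 12.7%. Quantile normalization called 0.8% lower and 0.901% higher, and unadjusted gave 5 members lower and 1 higher, against 11.5% and 10.3%. The replicate block alone called 0% of all probe sets in either direction, so its 0 says nothing about the members. Unadjusted, it gave 3 members lower and 1 higher, against 13.3% and 7.77%. In the fits that did call a member, the unadjusted counts in limma were 8 to 12 members lower and 0 to 1 higher. The unadjusted share over all probe sets was not computed for those fits, so these counts have no background beside them.

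The remaining NDH genes had overlapping groups. The peripheral-arm genes ndhK and ndhJ, which lie beside ndhC, had log2 changes of -0.50 and 0.25, and that of ndhK was -0.28 with 32 added. Among the membrane-arm genes, ndhG, ndhD and ndhF stood at -0.37, 0.06 and 0.30. The highest change of the complex was that of ndhE (244933_at), a small membrane subunit, with signals of 92.5, 22.6 and 39.7 without PPA1 and 107, 37.7 and 41.3 with it. The replicate 1 arrays were the highest in both conditions, and the log2 change was 0.34 (95% interval -1.29 to 1.96, limma adjusted p = 0.786). Only ndhF had a mean log2 signal under 4, with signals of 17.6, 10.03 and 13.3 without PPA1 and 24.2, 20.7 and 8.81 with it, so its change rests on values near background.

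Rubisco fixes carbon dioxide, and the plastid gene rbcL encodes its large subunit. The probe set of rbcL (245015_at) had the highest log2 change of the 39 members and was the 1 member whose PPA1 values all lay above its controls. Signals were 187, 90.7 and 126 without PPA1 and 399, 193 and 217 with it. The lowest PPA1 value, in replicate 2, was only slightly above the highest control, in replicate 1. The mean log2 signal was 7.01 ± 0.52 without PPA1 and 7.997 ± 0.56 with it (SD, n = 3 per group). The log2 change was 0.99 (95% interval -0.02 to 1.999, limma adjusted p = 0.225), or 1.98-fold higher, and 1.20 relative to the array medians. It stayed above 0 when any single array was left out, between 0.67 and 1.26.

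Comparing arrays of the same replicate number, rbcL was higher after PPA1 by 1.09, 1.09 and 0.79 on the log2 scale for numbers 1, 2 and 3. With the replicate number as a block, rbcL did not pass in the plain limma fit (adjusted p = 0.169), in which 0 of 22746 probe sets passed. Adding a robust variance trend to the block gave a limma adjusted p of 0.0310, in a fit that called 3.66% of probe sets higher and 4.82% lower. Leaving dim probe sets out of the blocked fit gave a limma adjusted p of 0.0430, in a fit that called 4.11% higher and 6.38% lower. Over all alternatives its adjusted p ran from 0.0310 to 0.460. Next to rbcL on the plastid chromosome, and transcribed from the opposite strand, lies atpB, whose change was -0.56. The log2 ratio of rbcL to atpB within an array was higher after PPA1 by 1.55, a pair chosen after the values were seen and not tested.

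Genes that are transcribed together can share a change. The members fall into 10 textbook transcription units with at least 2 members each, and 6 members outside them. Within units the estimates lay close in some cases and far apart in others. In psbD and psbC the log2 changes were both 0.45, and in psaA and psaB they were -0.27 and -0.23. In the psbE unit all 4 lay between -0.63 and -0.51, and in the unit from psbB to petD all 5 lay between -0.55 and -0.08. Relative to the array medians, psbT and petD of that last unit were above 0.

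The unit from ndhH to ndhD showed the widest spread. In their order on the chromosome, the log2 changes were -1.13 for ndhH, -0.78 for ndhA, -1.06 for ndhI, -0.37 for ndhG, 0.34 for ndhE, 0.07 for psaC and 0.06 for ndhD. The genes at the ndhH end thus had the lowest values, and the genes from ndhE on had values above 0. The unit ndhC, ndhK and ndhJ likewise ran from -0.71 through -0.50 to 0.25. Some of these probe sets are dim, and with 32 added before log2 several changes shrank. In the first unit ndhH was then at -0.60, ndhA at -0.69, ndhI at -1.01 and ndhG at -0.15. In the second, ndhC was at -0.69, ndhK at -0.28 and ndhJ at 0.017. The changes of ndhE, psaC, ndhD and ndhJ were below 0 without control replicate 2 (-0.14, -0.52, -0.32 and -0.61) or without PPA1 replicate 1 (-0.14, -0.41, -0.46 and -0.18). The differences within units were not tested.

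**Figure D3:**
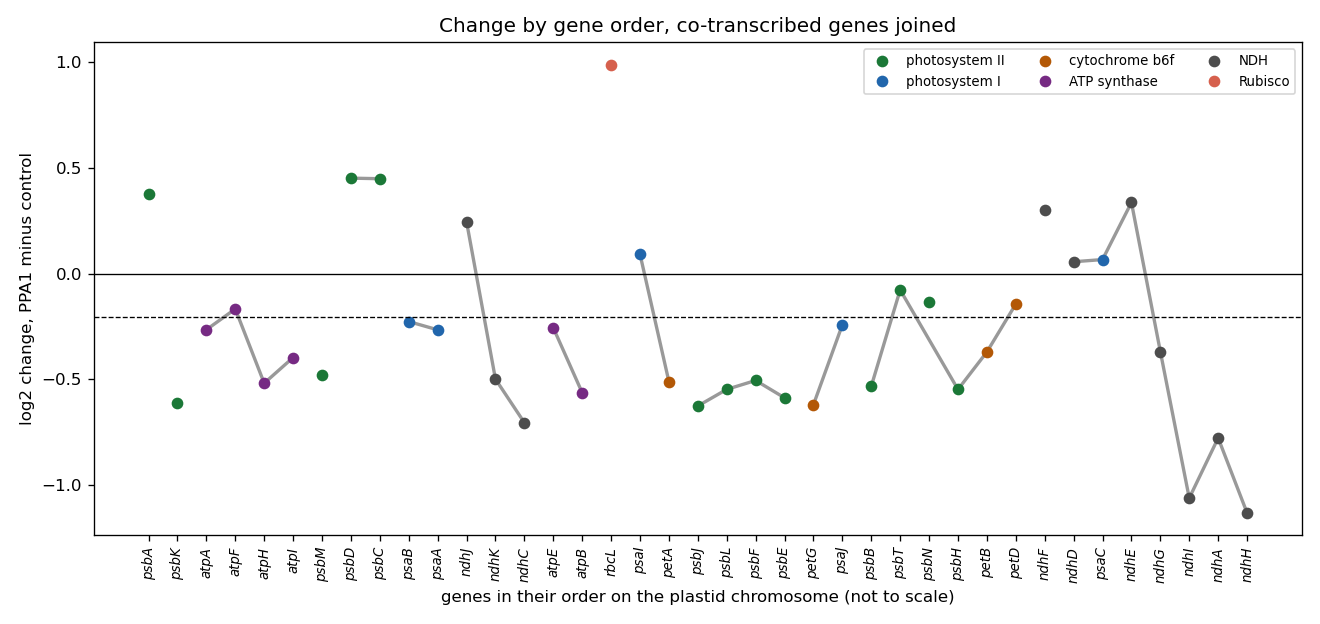
Log2 change (PPA1 minus control, deposited scale) of the 39 members, placed in their order on the plastid chromosome and coloured by complex. Grey lines join members of 1 transcription unit, the solid line marks 0 and the dashed line the median of all tested probe sets, -0.21. The line of the unit from ndhD to ndhH runs from above 0 on the left to -1.13 at ndhH, while the psbE unit is nearly level.

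Much of the members' spread lay between arrays of the same condition. Replicate 1 was the highest array in 35 of 39 members after PPA1 (89.7%) and in 22 of 39 members in controls (56.4%), and in both conditions for 21 members (53.8%). Over all tested probe sets these shares were 46.8%, 32.5% and 17.5%. The pattern was not particular to the members. Probe sets of other plastid genes had shares of 80.8%, 61.5% and 57.7%, and mitochondrial ones 94.4%, 50% and 44.4%. The lowest array was replicate 2 for 28 members in controls and for 29 after PPA1. Replicate 1 exceeded the mean of replicates 2 and 3 by a median of 0.43 in controls and 0.67 after PPA1 on the log2 scale, against -0.01 and 0.15 over all tested probe sets. Across the 39 members, these excesses in the 2 conditions correlated with r = 0.82, against r = 0.06 across all tested probe sets and 0.16 across bright ones. No such value was computed for the other plastid or mitochondrial probe sets. The members share arrays and transcription units, so the correlation is only a description.

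The excess was uneven among genes. It reached at least 1, or 2-fold, in both conditions in 8 members (20.5%, against 2.53% of all tested probe sets), namely atpA, atpF, ndhD, ndhE, ndhJ, psaC, psaI and psaJ. Some other organelle genes had such an excess too, among them plastid matK and rps4 and mitochondrial nad4, while others, such as plastid rps18, did not. The share among those probe sets was not computed. Signals of psaJ (244967_at) were 2078, 894 and 1039 without PPA1 and 2028, 633 and 907 with it. Those of psaC were 132, 24.4 and 51.1 without PPA1 and 110.3, 33.2 and 51.5 with it. In contrast, petB gave 3965, 4049.8 and 4114 without PPA1 and 3805, 2537 and 3160.4 with it, with controls nearly equal. All 8 members with the large excess had wide intervals, with adjusted p of at least 0.786 in limma. The replicate 1 arrays also stood apart outside the members. The 25S ribosomal RNA probe set gave 5345, 3024 and 3237 without PPA1 and 5105, 1345 and 1322 with it. The mean log2 signal of the 18 hybridisation spikes was 8.28 (control) and 8.50 (PPA1) for replicate 1, whereas the remaining arrays ran from 8.91 to 9.26. Their part in the members' values was not tested.

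**Figure D4:**
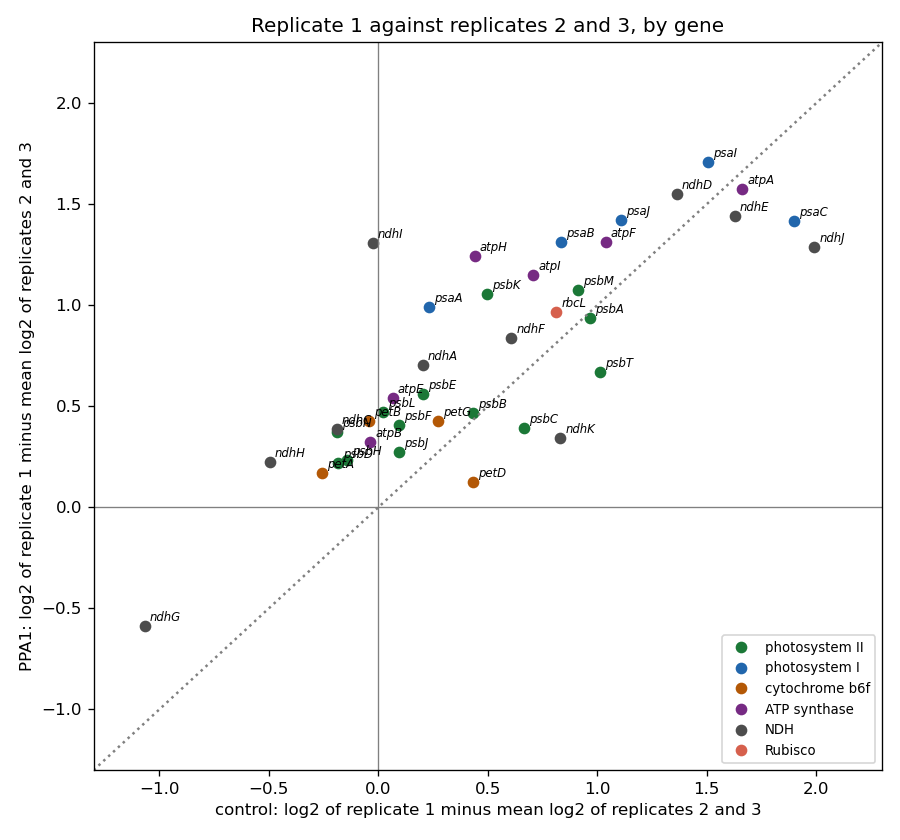
For each of the 39 members, the log2 signal of replicate 1 minus the mean log2 signal of replicates 2 and 3, in controls (horizontal axis) and after PPA1 (vertical axis), coloured by complex. The dotted line marks equal values. In 38 of 39 members the PPA1 value is above 0, and 8 members exceed 1 on both axes.

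Within replicates 2 and 3 alone, 0 members passed in limma, against 3.38% of probe sets called higher and 2.81% called lower. At an unadjusted p under 0.05 there were 3 members lower and 1 higher, against 19.5% and 11.7% of all probe sets. The members' median log2 change was -0.52, against -0.26 over all tested probe sets. By complex the medians were -0.55 for photosystem II, -0.35 for photosystem I, -0.59 for cytochrome b6f, -0.48 for the ATP synthase and -0.43 for NDH, and rbcL stood at 0.94. Replicate 1 alone offers a single array of each condition and hence no test.

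Other organelle transcripts are set beside the members here. For 26 probe sets of other plastid genes, which encode ribosomal proteins, polymerase subunits and other functions, the median log2 change was -0.42, with 22 of 26 below 0 and 0 called. For 18 probe sets matched by symbol to mitochondrial genes the median was -0.56, with 15 of 18 below 0 and 0 called. Over all tested probe sets the median was -0.21, with 61.2% below 0 and 1.8% called. Relative to the array medians, the other plastid and mitochondrial medians were -0.20 and -0.35, against -0.16 for the members. Several mitochondrial probe sets measure the same gene, nad1, and the nad2 signals were near background. The highest, nad6, was at 1.29 with separate groups and did not pass (limma adjusted p = 0.0753). The photosynthesis genes outside the list had log2 changes of -0.21 for petL, 0.14 for petN, -0.51 for psbI and 0.15 for psbZ. The differences between these sets were not tested.

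Nuclear partners of the plastid genes could be followed for 11 of 72 genes in lists of subunits, polymerases, sigma factors and RNA factors, and 0 of these 11 passed in limma. Of the nuclear photosystem genes, PSAE1, PSAN, PSBW and PSBY had log2 changes of -0.77, -1.23, -0.62 and -0.41. The cytochrome b6f gene PETM and the ATP synthase gene ATPC1 stood at -0.55 and -0.49, and the NDH genes NDHL and NDHN at -0.45 and -0.03, NDHL from signals mostly below the limit for dim probe sets. Rubisco activase (RCA), which keeps Rubisco active, had a log2 change of 0.34 (limma adjusted p = 0.481). CRP1, a chloroplast RNA-binding protein that in maize is needed for petA and petD expression, stood at -0.33. The phage-type polymerase RPOTmp had the highest estimate of these, 1.07, with signals of 13.0, 27.6 and 33.5 without PPA1 and 27.0, 72.6 and 56.5 with it (limma adjusted p = 0.283). Its groups overlapped, and control replicate 1 was below the limit for dim probe sets. Relative to the array medians NDHN stood at 0.18, and the other 10 kept their sign.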

How the data were processed

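RNA of 6 cell culture samples was hybridised to 6 Affymetrix ATH1 arrays. Each deposited value is a linear intensity per probe set that the authors normalized with GCRMA, per the submitters' processing notes, in a version that the sources used here do not give. GCRMA subtracts a modelled background, so folds of dim probe sets depend on that step.

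Log2 signals with no added constant of 22746 probe sets, without the 64 manufacturer controls, were fitted in limma 3.58.1 (lmFit, eBayes; R 4.3.3) with condition as the only term. Benjamini-Hochberg adjustment ran over all of them. Python 3.11.15 with pandas 2.3.3 and matplotlib 3.10.9 made summaries and figures. On simulated data with known changes the fitting code was tested beforehand.

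The platform annotation used here lists 13513 probe sets with 1 gene symbol and 503 with several, and 8794 of 22810 have no entry in it. Genes and their order came from the table of assembly TAIR10.1. Mitochondrial genes were matched by symbol. Transcription units are textbook groupings. Values in every array were planned for members passing the test, those the list names singly, and the highest and lowest change of each complex; ndhI, ndhC, ndhF, psaJ, psaC and petB were added after their values were seen. The members and lists were chosen with earlier results of these data known.

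Replicate numbers are shared between conditions. Between arrays of the same number, deviations from the condition's mean had r = 0.06, 0.03 and 0.02 over all probe sets (numbers 1, 2 and 3). The values were 0.16, 0.24 and 0.15 for bright probe sets, and 0.82, 0.51 and 0.12 for the members. What a number shares is not in the labels, so the reported fit has no block and blocked values are given where they change a call.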

Additional observations from a re-analysis of the deposited data

How the results depend on the processing

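All alternatives were planned. Against 0 members called higher and 0 lower, limma called 1 lower without dim probe sets (mean log2 under 4), 1 lower with 32 added before log2, 3 lower with array weights, and 1 higher with the replicate block joined to a robust variance trend or to the limit on dim probe sets. The replicate block alone gave 0 and 0 in a fit that called 0 of 22746 probe sets (unadjusted, 1 member higher and 3 lower). Fits with 0 and 0 members were also median centring, quantile normalization, the variance trend, replicates 2 and 3 alone, and replicate 1 against the rest as a term. Leaving out 1 array gave 0 higher and 0 to 1 lower, the 1 being ndhI without PPA1 replicate 1. In 5 of the 6 such fits 0 of 22746 probe sets were called, so they say nothing about the members' calls. The 6 fits gave a median change of the members from -0.61 to -0.18, against -0.26 to -0.14 over all tested probe sets. Over all alternatives the members' median stayed below 0. That of all tested probe sets did so too, except under median centring (0.0059). For single members, 618 of 661 values kept direction and side of the threshold, 8 newly passed and 35 changed sign. Many of the 618 were fixed in advance. The variance trend, the limit on dim probe sets, the block fits and the replicate 1 term leave each log2 change as reported. No sign could change there, and no member passed where a fit called 0 of 22746 probe sets. The sign changes lay in 13 members, all with a log2 change within 0.40 of 0 in the fit as reported. Under median centring, atpF (0.046), petD (0.069), psbN (0.076) and psbT (0.14) were above 0, and under quantile normalization petD (0.17) and psbN (0.13). With array weights ndhD (-0.050) and psaI (-0.16) were below 0. Within replicates 2 and 3, ndhD was at -0.0078 and psbT at 0.037. Leaving out 1 array gave ranges across 0 for atpA (-0.79 to 0.29), atpF (-0.61 to 0.18), atpI (-0.78 to 0.027), ndhD (-0.46 to 0.57), ndhE (-0.14 to 0.88), ndhJ (-0.61 to 0.91), petD (-0.47 to 0.22), psaB (-0.67 to 0.051), psaC (-0.52 to 0.70), psaI (-0.48 to 0.59), psaJ (-0.72 to 0.13), psbN (-0.26 to 0.017) and psbT (-0.37 to 0.26). The cause was not tested. Signals near background limit ndhF, petD, ndhG, atpI, ndhJ and, after PPA1, ndhH.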
